A study of Arabidopsis thaliana with 6 samples.

Results

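The wild-type response to renewed light was followed in rosette leaves of Arabidopsis thaliana, ecotype Landsberg erecta (Ler), on 3 of the 6 arrays of the series. Plants were raised on soil in continuous light for 3 weeks, kept dark for 8 h, and harvested before bolting after 30 min, 60 min or 2 h of light. Each time was measured on 1 Affymetrix ATH1 array, with RNA from the leaves of 5 to 6 plants per sample and RNA of 2 experiments pooled before labelling. The remaining 3 arrays are of the mutant flu1-1 in the same ecotype, given the same darkness and the same 3 light times. The mutant builds up a chlorophyll precursor in the dark and releases singlet oxygen in its plastids when light returns, so that it is used here only as a second set of plants under the same light schedule, not as a replicate. All 6 arrays follow the dark treatment and none is of plants still in the dark, so that 30 min is the earliest point from which a change can be read.

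The arrays hold 22746 probe sets apart from controls, and 12305 of them were described because their highest signal on the Ler arrays reached a fixed limit. A probe set is a group of short oligonucleotides for 1 transcript, and its signal is a summary of their brightness on a linear scale. Just inside this limit lay an unnamed probe set with a highest signal of 185.04 and AT2G14650 with 185.07, and just outside lay ETP2 with 184.98. Differences between times are given as log2 differences, that is differences of log2(signal + 50), and a probe set was counted as higher or lower at an absolute log2 difference of at least 1, which is 2-fold. With 1 array per time there is no test of a single step, and "rose" and "fell" are used only past that 2-fold line. The steps from 30 to 60 min and from 60 min to 2 h share the array of 60 min, so a high or low reading there enters both with opposite sign.

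When light follows darkness, phytochromes and cryptochromes release transcription factors such as HY5 from degradation, and genes for pigments, photoprotection and photosynthesis are switched on. Photosynthesis restores sugar, which turns down the starvation programme that the kinase complex SnRK1 runs in the dark. Light also resets the circadian clock, whose evening gene GIGANTEA and its partners time growth, starch use and flowering. The annotation gives many genes only by their locus, and the roles stated for those are general knowledge about Arabidopsis and not results of these arrays.

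Leaf markers were bright. The 3 named antenna probe sets had Ler signals of 2327 to 23291 and the 4 of the Calvin cycle and photorespiration 13839 to 20957, while 4 markers of root, flower, pollen and seed lay between 15.5 and 196 and only AGL42 among them passed the signal limit. Across the gene lists used below, 210 probe sets carried a listed gene and 169 of them passed. Signals of the same Ler arrays correlated across probe sets with r of 0.955 to 0.971 on the log2 scale, and probe sets are not independent replicates. The 9 probe sets for RNAs added before hybridisation differed by -0.32 to 0.05 on the log2 scale between 30 and 60 min and by -0.25 to 0.28 between 60 min and 2 h. The 3' to 5' ratio of the actin control, a sign of RNA integrity, was 1.43, 1.99 and 2.03 in order of time and that of GAPDH 1.00, 0.86 and 0.92. The part of RNA integrity in the results was not tested. In RNA of whole leaves, fewer cells of a type and less RNA per cell cannot be told apart.

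From 30 to 60 min, 79 of the 12305 probe sets rose (0.642%) and 50 fell (0.406%), together 1.05%. From 60 min to 2 h, 50 rose (0.406%) and 107 fell (0.87%), together 1.28%. With shares this low, 0 rises or falls in a short list below is no departure from all probe sets. The median log2 difference was -0.03 in the first step and 0.01 in the second, the values against which list medians are set below, and the central 95% of probe sets lay between -0.68 and 0.69 and between -0.69 and 0.64. Over the whole interval from 30 min to 2 h, 166 rose (1.35%) and 150 fell (1.22%), together 2.57%. Of the 79 that rose first, 38 are probe sets of a single named gene, as are 24 of the 50 that fell. In the second step these numbers were 20 of 50 and 45 of 107. Nearest to the 2-fold line of the first step, AT1G34570 (1.001) and AT2G05540 (-1.0) lay just inside. AT1G57650 (0.995) and AT4G05460 (-0.994) lay just outside. In the second step AT3G52800 (-1.001) lay just inside and SOL1 (0.995) just outside. The split of 79 to 50 depended on how the arrays were scaled, with 91 to 33 after quantile normalization and 116 to 34 when each array was brought to the same median. Many of the counted probe sets were dim, since 32 of the 79 started below the signal limit and 43 of the 107 ended below it.

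**Figure D1:**
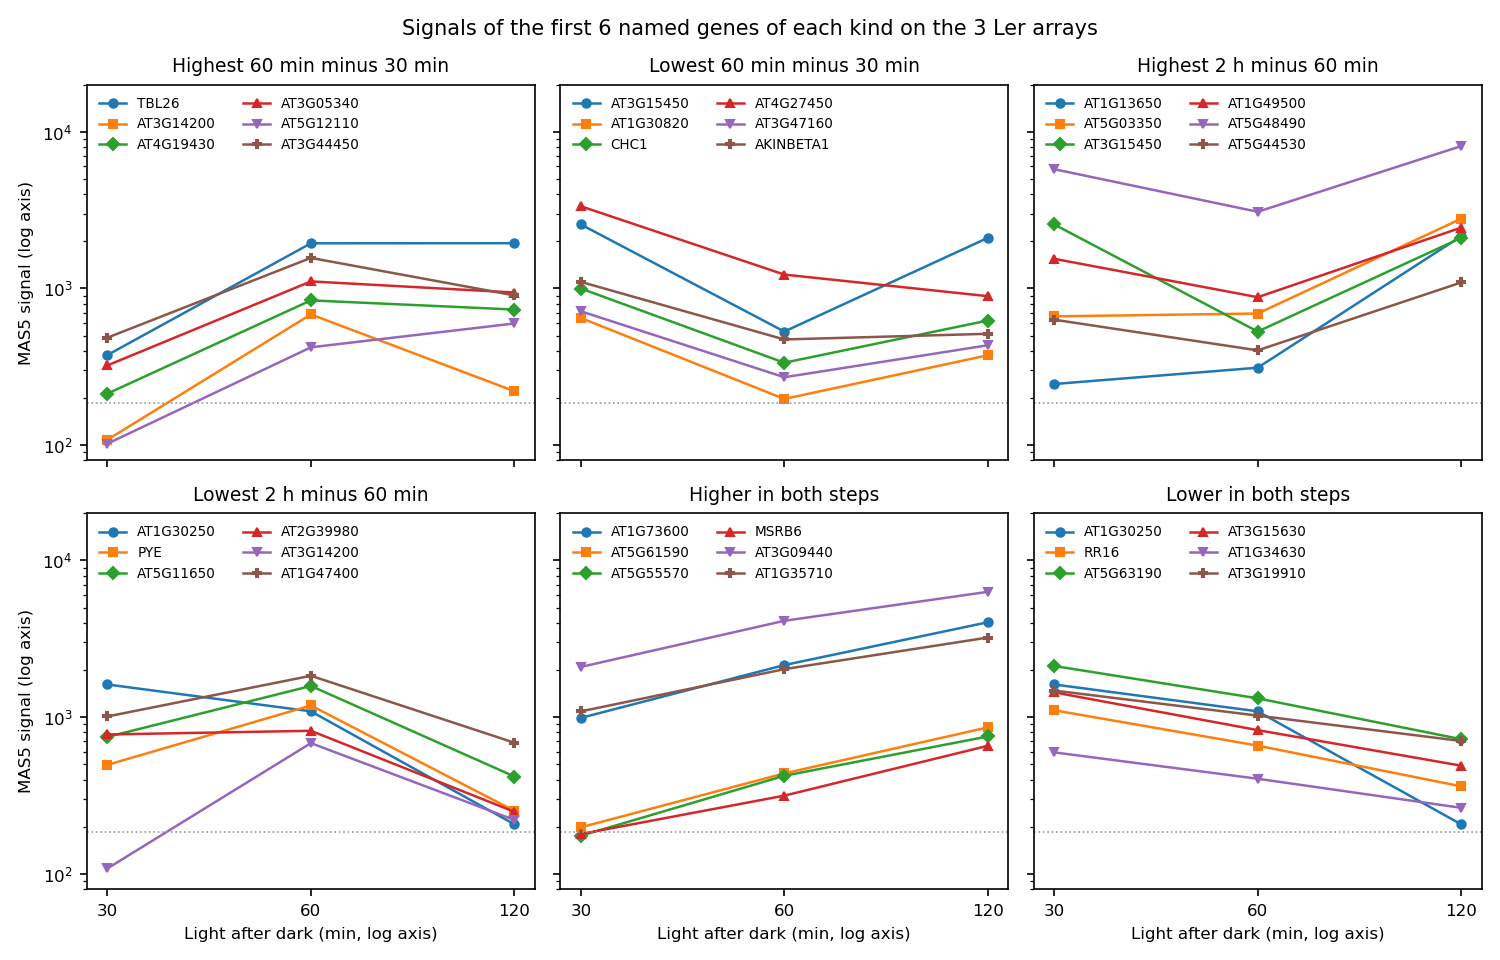
Deposited MAS5 signals (log axis) against minutes of light (log axis) on the 3 Ler arrays, 1 array per time, for the first 6 named genes of each kind; the dotted line is the signal limit that admitted a probe set. AT3G15450 dips from 2559 to 531 and returns to 2102, PYE peaks at 1186 between 496 and 253, and AT1G73600 climbs from 989 to 4028.

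An inhibitor of cryptochromes and a clock gene were among those that rose in the first step. AT3G44450, which encodes the cryptochrome inhibitor BIC2, had signals of 485, 1567 and 903 at 30 min, at 60 min and at 2 h, the order in which signals are given throughout. It rose by a log2 difference of 1.59 and then stood -0.76 from its level at 60 min, so that the highest reading was the middle one. GI (GIGANTEA), a clock and flowering-time protein, had signals of 282, 813 and 675 and rose by 1.38 in the first step. Its level at 2 h stayed above that of 30 min. TIC (TIME FOR COFFEE), another clock regulator, had 3481, 1896 and 2239, a log2 difference of -0.86 that did not reach 2-fold, and it was highest at 30 min. HYH, a bZIP factor closely related to HY5, had 609, 976 and 587, with log2 differences of 0.64 and -0.69. MYC4, a bHLH factor of jasmonate and glucosinolate control, had 363, 702 and 259.7 and fell by 1.28. Like BIC2, it had its highest signal at 60 min and lower ones on either side.

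Genes of sugar metabolism and of the dark programme went in different directions. ATSPS4F, a sucrose phosphate synthase that makes sucrose in the leaf, had signals of 577, 1711 and 2116 and rose by a log2 difference of 1.49 from 30 to 60 min. Both later arrays stood above the first. It was not on the list of starch and sucrose metabolism, which is described next. APL3, a large subunit of the ADP-glucose pyrophosphorylase of starch synthesis, had 107, 243 and 353, with log2 differences of 0.90 and 0.46 in turn and 1.36 over the whole interval. APL3 was below the signal limit at 30 min and passed it only on later arrays. It could thus be admitted only with a higher signal there, and its differences are no support for a direction. The other 5 tested genes of that list stayed within -0.39 and 0.38 in both steps, and these 6 genes had 0 rises and 0 falls in either, with medians of -0.04 and 0.10.

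AKINBETA1, a subunit of the SnRK1 kinase that is active under low energy, had signals of 1102, 473 and 514 and fell by 1.14 in the first step. It was the only one of 9 tested genes of the dark and starvation list to cross the 2-fold line in a single step, where 0.406% of all probe sets fell, and the list medians were -0.24 and -0.06, against -0.03 and 0.01 over all probe sets. MCCA, a subunit of the leucine-degrading enzyme methylcrotonyl-CoA carboxylase, had 558, 429 and 239 and was lower at each later time, with a log2 difference of -1.07 over the whole interval. ATG8E, of autophagosome formation, had 487, 433 and 663 and was highest at 2 h. All 8 tested autophagy genes stayed inside the 2-fold line in both steps. SWEET13, a sucrose exporter of leaf veins, had 307, 449 and 739.9, highest at 2 h, and the other 5 tested sugar transporters stayed between -0.27 and 0.32 in both steps.

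AT4G27450 and AT3G15450 encode small proteins of one family, with YGL and LRDR motifs, whose transcripts are known to be abundant in darkened or sugar-starved tissue. AT4G27450 had signals of 3345, 1226 and 893, and its log2 difference was -1.41 in the first step and -0.44 in the second. AT3G15450 had 2559, 531 and 2102, and it fell by 2.17 and then rose by 1.89. The former was highest at 30 min and lowest at 2 h, while the latter was at its lowest at 60 min and nearly back at its first level at 2 h. AT1G30820, a CTP synthase, and CHC1, a subunit of SWI/SNF chromatin remodelling complexes, also had their lowest reading at 60 min, with signals of 648, 197 and 375 for the former and 999, 336 and 624 for the latter. Their log2 differences were -1.50 and -1.44 in the first step and 0.78 and 0.81 in the second. All these dips rest on the single array of 60 min.

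**Figure D2:**
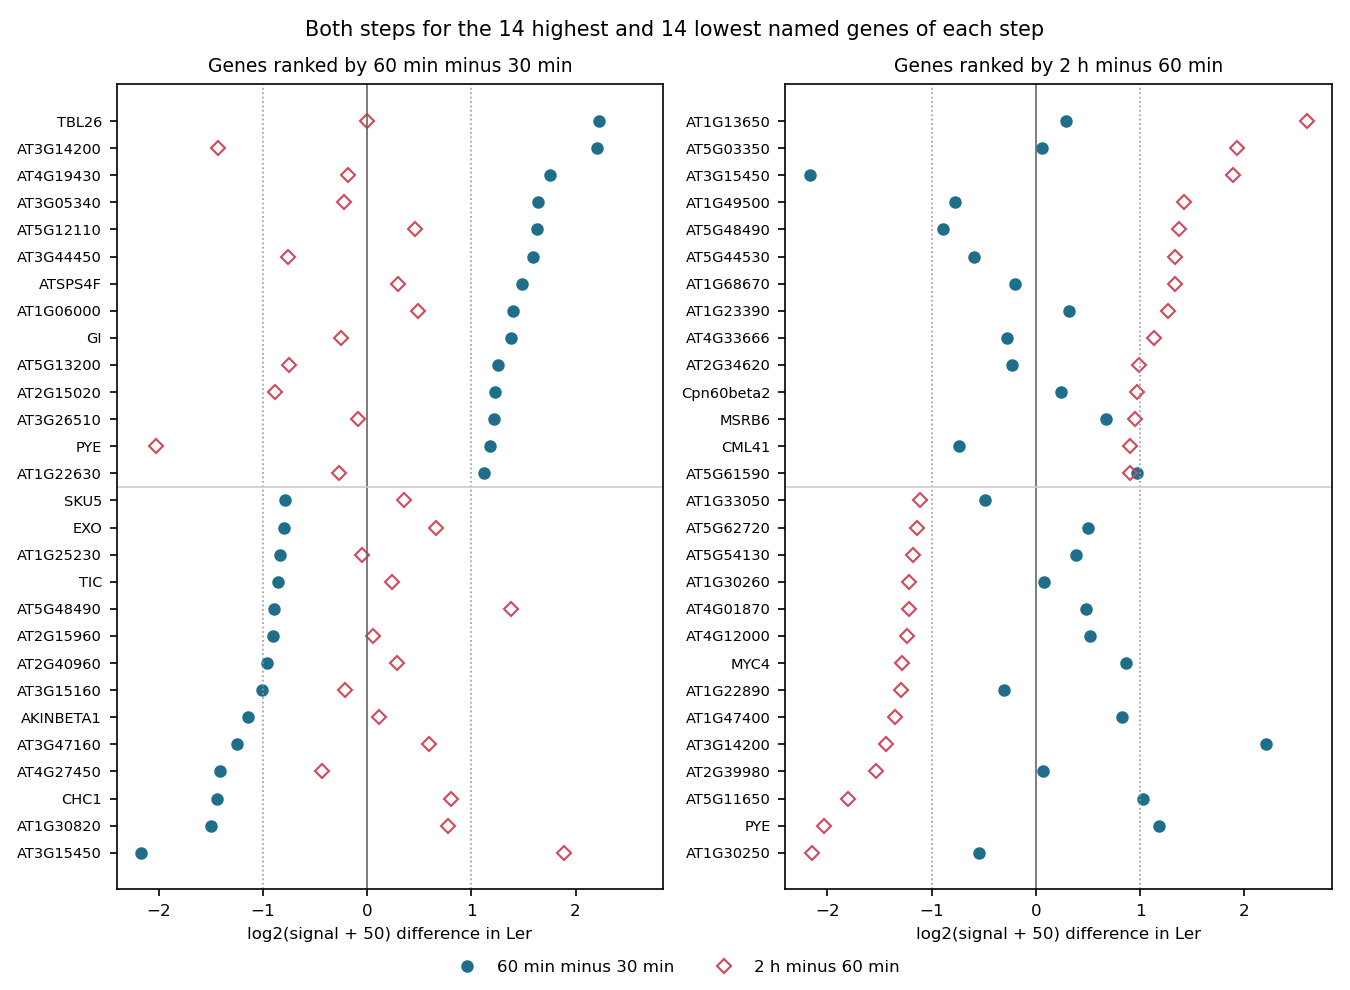
Log2 differences in Ler for the 14 highest and 14 lowest named genes of the first step (left) and of the second step (right); filled circles are 60 min minus 30 min, open diamonds 2 h minus 60 min, and dotted lines mark 2-fold. Both symbols of a gene use the same 60 min array, and genes such as PYE (1.18 and -2.03) and AT3G15450 (-2.17 and 1.89) have them on opposite sides of 0.

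Several flavonoid genes had higher signals on the later arrays. Flavonols and anthocyanins screen leaves against light, and their synthesis is a classical light response. AT1G06000, a flavonol rhamnosyltransferase known as UGT89C1, had signals of 168, 525 and 754 and rose by a log2 difference of 1.395 from 30 to 60 min. UGT78D1, which adds rhamnose to flavonols at another position, had 244, 554 and 791 and rose by 1.04 in the same step, or 0.92 with an offset of 100. Both stood higher again at 2 h. DFR, dihydroflavonol reductase of the anthocyanin branch, had 147, 139 and 385 and rose only in the second step, by 1.21. CHIL, a chalcone isomerase-like protein that aids flavonol synthesis, had 95.6, 166 and 333 and a log2 difference of 1.39 over the whole interval. AT1G23390, an F-box protein known as KFB-CHS that marks chalcone synthase for degradation, had 419, 535 and 1361 and rose by 1.27 in the second step. UGT78D2, a flavonoid glucosyltransferase, was the exception in the set, with 789, 1172 and 651 and its highest signal at 60 min. Of the 6 tested genes in this list, 2 rose in the first step, where 0.642% of all probe sets did, 2 rose in the second, where 0.406% did, and 0 fell. The medians were 0.56 and 0.65. AT1G06000, DFR and CHIL were below the signal limit at 30 min and passed it only through a later array, so that they could be admitted only with a higher signal there, and the counts and medians are no support for a direction of the list. The list was put together by locus after values had been seen, so that its counts are a description only, and 2 of its 8 genes with a probe set stayed below the signal limit.

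Of the iron homeostasis genes 2 peaked at 60 min. PYE (POPEYE), a bHLH factor that holds back iron storage and transport genes under iron deficiency, had signals of 496, 1186 and 253. It rose by a log2 difference of 1.18 and then fell by 2.03, ending below its first level. AT1G47400, which encodes the iron deficiency peptide IMA1, had 1009.9, 1836 and 687, with a log2 difference of 0.83 in the first step, and fell by 1.36 in the second. Both were highest at 60 min and lowest at 2 h. The bHLH factors that act upstream of them were nearly level, with ILR3 at 2082, 2248 and 2311, bHLH104 at 859, 774 and 698 and bHLH115 at 971, 935 and 1141. Over the 8 tested genes the medians were -0.04 and -0.05, with 1 rise in the first step, where 0.642% of all probe sets rose, and 2 falls in the second, where 0.87% fell. This list too was chosen after the values of PYE had been seen.

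The few tested nuclear photosynthesis genes stayed inside the 2-fold line between these times. They were 3 of 28 listed for the antenna and 4 of 40 for the Calvin cycle and photorespiration. For the photosystems, electron transport and ATP synthase they were 7 of 43. LHCB4.1, LHCB4.2 and LHCB4.3 encode the minor antenna protein CP29, and all stood somewhat higher at 2 h than at 60 min, except that LHCB4.1 was lower there (-0.06) after quantile normalization. LHCB4.1 had 23291, 19320.3 and 20507, with a log2 difference of 0.09 in the second step. LHCB4.2 had 7193, 7002 and 10866 and 0.63, and LHCB4.3 had 2327, 2593 and 3424 and 0.39. The 7 tested genes of the photosystems, electron transport and ATP synthase lay between -0.24 and 0.27 in both steps, and the 4 of the Calvin cycle and photorespiration, RCA, SBPASE, PRK and HPR, between -0.18 and 0.18. In tetrapyrrole synthesis, the pathway of chlorophyll and haem, GSA1, of 5-aminolevulinate synthesis, had 1637, 2232 and 2059.6 and the largest difference of the 8 tested genes at 0.44. PORB, a protochlorophyllide oxidoreductase that needs light to work, had 10507, 10585 and 9208. None of these 22 genes rose or fell in either step, where 1.05% and 1.28% of all probe sets did. The 0 is thus no sign that they were steadier than other genes.

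Most tested transcripts made in the plastid also stayed inside the 2-fold line. Of the 48 tested plastid photosynthesis genes 1 rose from 30 to 60 min and 0 fell, against 0.642% and 0.406% of all probe sets, and their medians were 0.03 and -0.02. The one that rose was psbN, a small open reading frame on the strand opposite the psbB operon that is needed for photosystem II assembly, with 666, 1411 and 1273 and a log2 difference of 1.03, which was 0.98 with an offset of 100. On the other strand, psbT had 1742, 1858 and 2012 and psbH had 6313, 9064 and 6508, neither of them past 2-fold. psbA, of the D1 protein that light wears out, had 4343, 4424 and 2903 and a log2 difference of -0.60 in the second step, the most negative of the 48 in that step. Of the small photosystem II subunits, psbM had 21273, 12479.5 and 18151 and psbF had 18564, 11203 and 12426. Both were highest at 30 min. Among the 21 tested plastid genes of transcription and translation, rpl14 rose by 1.11 with 2111, 4609 and 3647, and rps18, rpl16 and rpl20 followed with 0.65, 0.57 and 0.52. The list medians were 0.17 and 0.04.

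**Figure D3:**
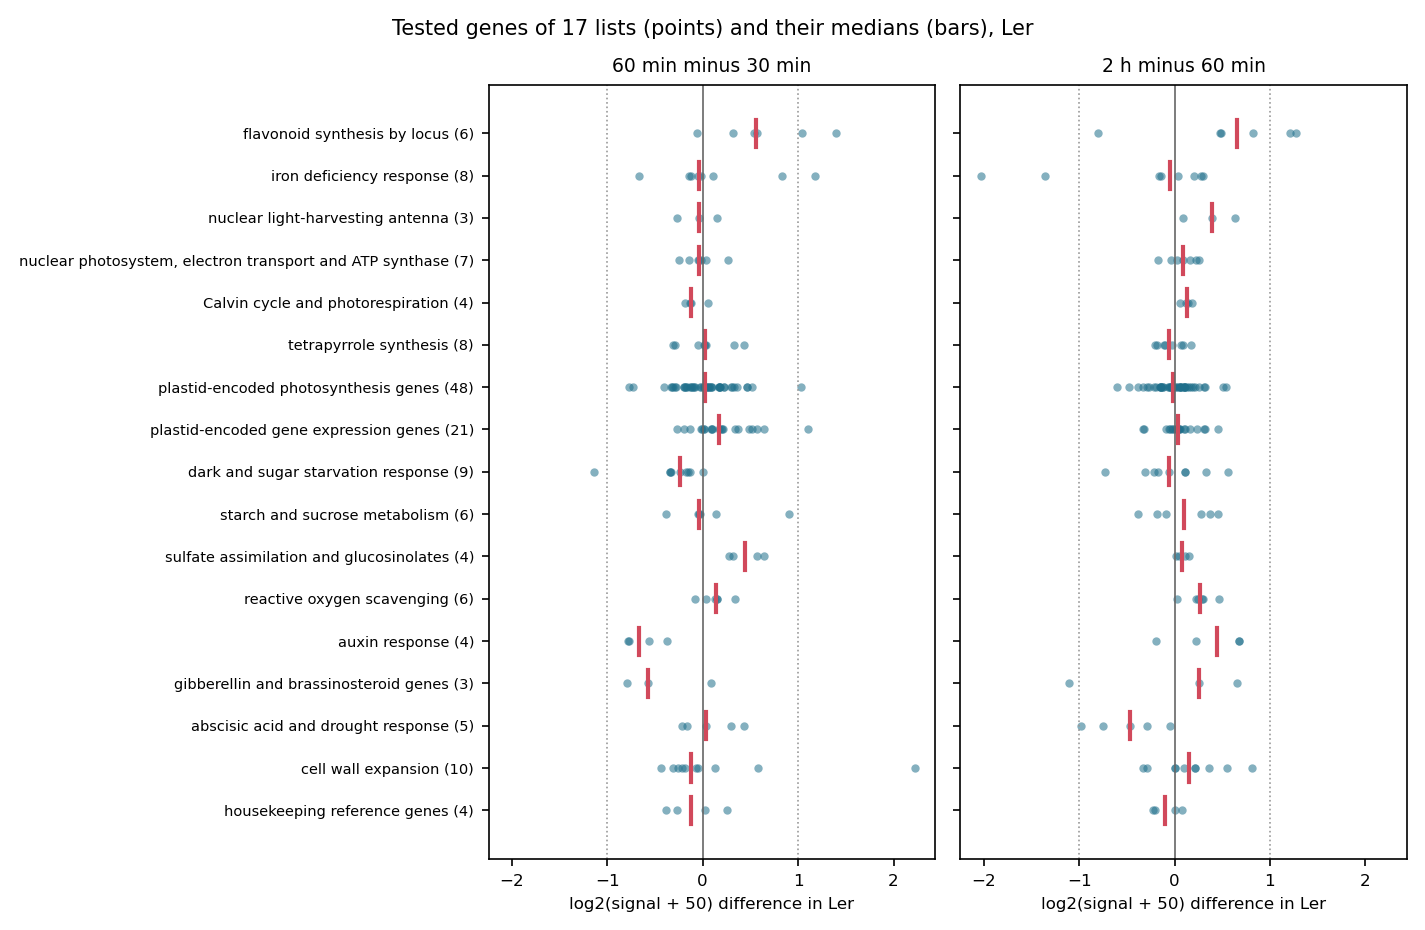
Log2 differences in Ler of the tested genes of 17 lists, 60 min minus 30 min on the left and 2 h minus 60 min on the right; each point is a gene, the red bar the list median, the number of tested genes is in brackets and dotted lines mark 2-fold. The 4 auxin genes sit at -0.78 to -0.38 on the left, and the 48 plastid photosynthesis genes have medians of 0.03 and -0.02. The flavonoid and iron lists were chosen after values had been seen.

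The tested auxin and cytokinin response genes were lower at 60 min than at 30 min, without reaching 2-fold. The 4 tested auxin response genes, of 11 with a probe set, had a median log2 difference of -0.67 in the first step and 0.45 in the second. IAA18, an auxin response repressor, had 840.1, 469 and 558, and HAT2, an auxin-induced homeodomain factor of shade growth, had 635, 415 and 690.3. WES1, an enzyme that conjugates auxin to amino acids, had 381, 202 and 353, and GH3.3, of the same enzyme family, had 343, 252 and 215. Each of the 4 was lower at 60 min than at 30 min, and for 3 of them the signal at 2 h was again above that of 60 min. RR16 and ARR15, both response regulators that dampen cytokinin signalling, had 1106, 658 and 362 for RR16 and 228, 124 and 140.0 for ARR15. ARR15 passed the signal limit only through its 30 min array, so that its lower later signals are no support for a direction. RR16 was lower at each later time and fell by 1.49 over the whole interval.

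GID1A, a gibberellin receptor, had 499, 534 and 221 and fell by 1.11 in the second step, with a difference of -0.98 at an offset of 100. GID1C, of the same receptor family, had 236, 142 and 179.9, lowest at 60 min instead of 2 h. EXO (EXORDIUM), a brassinosteroid-induced protein of leaf growth, had 1605, 904 and 1456 and was lowest at 60 min. Among 10 tested genes of wall expansion, TBL26, of a family whose known members acetylate wall polysaccharides, had 376, 1941 and 1944. Its rise of 2.22 in log2 difference was the largest of the named genes in the first step, and it then held its level (0.00). It was the 1 rise among the 10 in that step, where 0.642% of all probe sets rose, and 0 fell in either. The list medians were -0.12 and 0.16. EXPA16 and SKU5, described next, are not on that list. EXPA16, an expansin, had 550.0, 468 and 195 and fell by 1.08 in the second step (-0.94 at an offset of 100), while the other 5 tested expansins stayed within the 2-fold line. SKU5, a wall-bound protein of directional growth, had 5332, 3068 and 3923 and was lowest at 60 min. GIS, a zinc finger factor of trichome formation on the upper shoot, had 539, 695 and 315 and fell by 1.03 in the second step, with -0.94 at that offset. AT5G44530, of the subtilase family of proteases, rose by 1.33 in the second step, with 632, 403 and 1091.

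Genes of abscisic acid and cold or drought were lower at 2 h than at 60 min. Their 5 tested members had a median of 0.03 in the first step and -0.47 in the second, with 0 past the 2-fold line. LTI30, a dehydrin, had 269, 379.8 and 169 and a log2 difference of -0.98, and COR47, another dehydrin, had 3898, 3475 and 2044 and -0.75. PUB19, a ubiquitin ligase that restrains abscisic acid responses, had 409.7, 328 and 98.5 and fell by 1.35. The 3 other tested U-box ligases stayed between -0.14 and -0.10 in that step.

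Genes of sulfate assimilation and glucosinolate synthesis were slightly higher at 60 min. All 4 tested members had log2 differences of 0.27 to 0.65 in the first step, with a median of 0.44, and 0 of them rose by 2-fold. UGT74B1, a glucosyltransferase of glucosinolate synthesis, had 1339, 2125 and 2203 and the highest of the 4 differences. In the second step the 4 stayed between 0.02 and 0.15.

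Most defence and stress markers were low in the wild type. Of 10 markers of singlet oxygen and general stress with a probe set, 8 had Ler signals of at most 167 at every time, below the signal limit. Of all 22746 probe sets, 10441 were below that limit. STZ, a zinc finger repressor also called ZAT10, had 308, 283 and 267 in Ler and 6741, 8279.8 and 6607 in flu. TET8, a tetraspanin, had 2511, 2798 and 2182 in Ler. The tested WRKY genes, 3 of 6 with a probe set, lay between -0.58 and 0.04 in both steps, and the 9 tested cytochrome P450 genes between -0.40 and 0.56. The 6 tested genes of reactive oxygen scavenging had medians of 0.14 and 0.27 with 0 past the 2-fold line, and VTC4, an enzyme of ascorbate synthesis, had 1132, 1443 and 2009.8, higher at each later time.

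Some chaperone genes were higher at the later times, though the list of heat shock proteins and chaperones had 0 rises and 0 falls among 3 tested genes, with medians of 0.35 and 0.35. BZIP60, a transcription factor of the unfolded protein response on that list, had 1022, 1321 and 688 and was lowest at 2 h. The genes that follow are not on the list, apart from AT5G48570. AT3G09440, a cytosolic Hsp70, had 2089.9, 4116 and 6299, with log2 differences of 0.96 and 0.61 in turn. Cpn60beta2, of the plastid chaperonin, had 1047, 1249 and 2489.6 and 0.97 in the second step. AT5G48570 (FKBP65), a heat-inducible immunophilin, had 45.2, 99.5 and 247 and was dim on the first arrays. It passed the signal limit only at 2 h, so that it could be admitted only with a higher signal there. The medians of a list of 3 that holds it are no support for a direction. In flu the signals of AT5G48570 were 47.2, 843 and 5577. AT3G14200, with a DnaJ domain, rose and fell, with 108, 683 and 221 and log2 differences of 2.21 and -1.44. MSRB6, which repairs oxidised methionine, had 179.6, 316 and 656 and was higher at each later time.

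Several of the largest differences belonged to genes of other or little known function. AT1G13650 had signals of 246, 312 and 2153 and the highest second-step difference of the named genes at 2.605. AT5G03350, a legume lectin-like protein, had 664, 692 and 2784 and rose by 1.93. Both were nearly level until 60 min. AT5G48490, a lipid transfer protein related to DIR1, had 5764, 3084 and 8091, lowest at 60 min and highest at 2 h, and rose by 1.38 in the second step. AT1G68670 (HHO2), a GARP factor of nitrate and phosphate responses, had 421, 359.6 and 982 and rose by 1.33. It was nearly level up to 60 min. In the other direction AT1G30250 had 1615, 1089 and 207 and fell by 2.15, the lowest of the brighter single-gene probe sets in that step, those with a highest signal of at least 589. The dimmer AT1G11210 had 282, 335 and 13.4 and fell by 2.603. The adjoining locus AT1G30260 had 836, 885 and 354 and fell by 1.21. AT5G11650, of the alpha/beta hydrolase fold, had 748, 1581 and 418 and fell by 1.80 from a peak at 60 min. AT2G39980, of an acyltransferase family, had 775, 818 and 249 and fell by 1.54 after being level.

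A few named genes moved the same way in both steps by at least 0.5 on the log2 scale. AT1G73600, a methyltransferase of phosphocholine synthesis, had 989, 2149 and 4028, a log2 difference of 1.97 from 30 min to 2 h. AT5G61590 (DEWAX), an ERF factor that represses wax synthesis in the dark, had 198, 438 and 860.3 and 1.87. AT1G35710, a receptor-like kinase with leucine-rich repeats, had 1088, 2023 and 3218 and 1.52. All were lowest at 30 min and highest at 2 h. In the other direction AT5G63190, with MA3 domains as found in translation regulators, had 2119.5, 1318 and 723 and -1.49. AT3G15630 had 1439, 826 and 490.2 and -1.46.

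A straight line over log2 minutes was the only fit within Ler with a residual, and the residual, with 1 degree of freedom, measures how far the middle array lies off the line and not a spread over replicates. In this limma fit with Benjamini-Hochberg adjustment, 0 probe sets were higher (0.0%) and 2 lower (0.0163%) with time at an adjusted p under 0.05, and both of the latter are unnamed here. Their signals were 2754, 1001 and 395 for the first and 4447, 1759 and 619.6 for the other, and both had an adjusted p of 0.0414 in limma. Before adjustment, 785 higher and 782 lower probe sets had a p under 0.05 in limma. The named genes nearest the threshold, none of them past it, were AT1G73600, with an adjusted p of 0.0974 in limma, and AT3G09440, AT5G61590 and AT1G35710, each with 0.0978. Among those lower with time AT5G63190 had 0.124 and RR16 0.146 in the same fit. With each array scaled to the same median the fit called 74 higher and 37 lower, and without a trend in the variance prior 0 and 0.

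**Figure D4:**
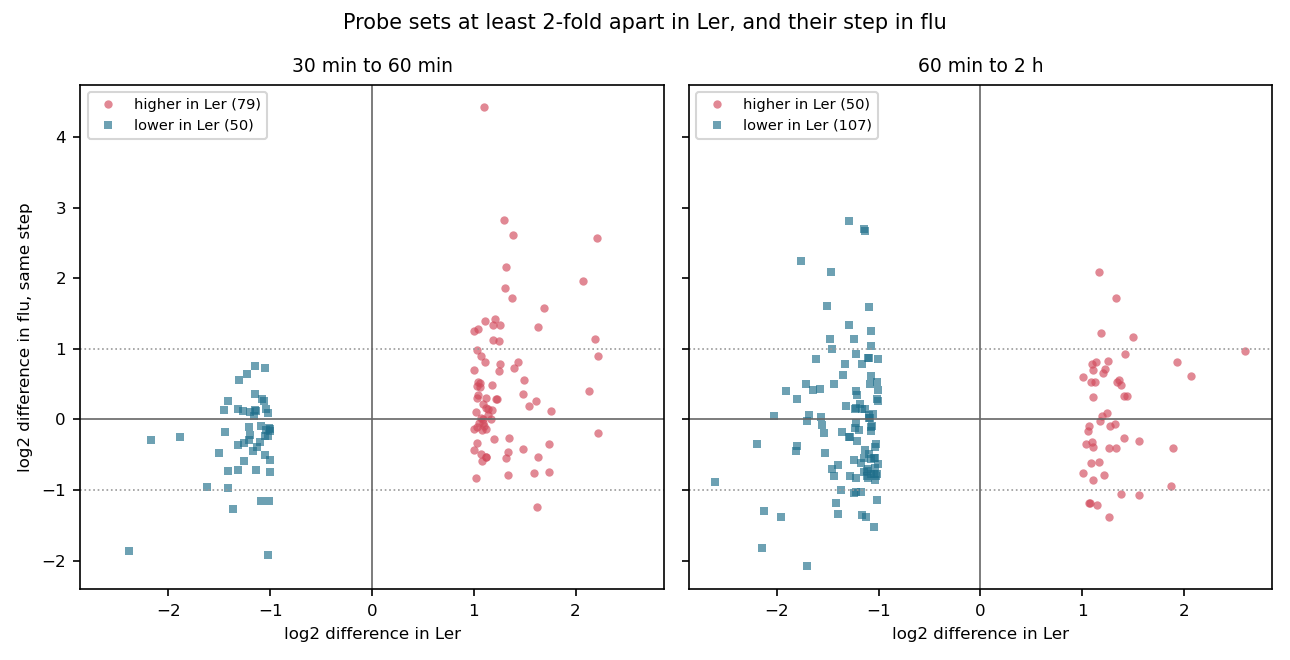
Log2 difference in Ler (horizontal) against that of the same step in flu (vertical) for the probe sets at least 2-fold apart in Ler, 30 to 60 min on the left and 60 min to 2 h on the right; dotted lines mark 2-fold in flu. Of the 79 that rose in Ler in the first step 19 lie above the upper line, and of the 107 that fell in the second step 14 lie below the lower line.

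The steps of the mutant use other arrays and other plants, and the Ler changes are set beside them here. Of the 79 probe sets that rose in Ler from 30 to 60 min, 19 also rose in flu (24.1%), where 1.83% of all 12305 did. Of the 50 that fell, 5 also fell (10% against 0.561%). On sign alone, 53 of the 79 were higher in flu (67.1% against 39.5%) and 33 of the 50 lower (66.0% against 60.5%). From 60 min to 2 h, 4 of 50 rose in both (8.0% against 3.0%) and 14 of 107 fell in both (13.1% against 1.58%). On sign alone, 25 of the 50 were higher in flu in this step (50% against 36.6%) and 59 of the 107 lower (55.1% against 63.4%), the latter a smaller share than among all probe sets. Over all probe sets the log2 differences of Ler and flu correlated with r of 0.12 in the first step and 0.05 in the second, across genes that are not independent. Opposite changes were also counted. In the second step 12 of the 107 that fell in Ler rose in flu (11.2% against 3.0% of all), and 6 of the 50 that rose in Ler fell in flu (12% against 1.58%), more than the 4 that rose in both. In the first step 1 of the 79 that rose in Ler fell in flu (1.27% against 0.561% of all). Of the 50 that fell in Ler, 0 rose there (0.0% against 1.83%). Counts this small are near those shares.

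Among genes with the same step in both genotypes, GI had 149.9, 606 and 716 in flu and rose by 1.71. AT3G14200 rose by 2.56 in flu and AT5G12110, of the elongation factor 1B family, by 1.304, against 1.63 in Ler. PDC2, a pyruvate decarboxylase, had 816, 1817 and 1238 in Ler and 797, 2169 and 4525 in flu, and flu was the higher at 2 h. AT1G68670 rose from 60 min to 2 h in both, by 1.33 in Ler and 1.71 in flu. AT1G30250 had 1486, 872 and 212 in flu, close to its Ler signals at each time, and fell by 1.82. AT5G54130 fell on both of its probe sets in Ler in the second step, by 1.28 and 1.18, and on the second of them it also fell by 1.02 in flu. AT2G48060 is the other gene with several tested probe sets and a change, and its probe sets disagreed, with 1.74 and -0.32 in the first step.

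Other wild-type changes did not reach 2-fold in flu in the same step. AT3G44450 (BIC2) had 751, 424 and 370.5 in flu and was highest there at 30 min, against a peak at 60 min in Ler. PYE had 465, 513 and 532 in flu, without the peak of the wild type. AT3G15450 had 5750.3, 4695 and 3522 in flu, above Ler at every time and without the dip. AT1G13650 had 175, 90.2 and 225, AT5G03350 347, 351 and 656 and AT1G73600 1107, 996 and 1127 in flu. From 60 min to 2 h AT1G13650 and AT5G03350 differed in flu by 0.97 and 0.81, the same direction as in Ler. The former lay just under the 2-fold line. For each of these 3 genes the Ler signal at 2 h was the highest of the 6 arrays. AT1G23390 (KFB-CHS) had 834, 594 and 553 in flu, where it was lowest at 2 h, the time of its highest Ler signal. ATSPS4F had 454, 693 and 859, higher with time in both genotypes and brighter in Ler on each array. None of these differences between genotypes has a test, since each genotype and time has 1 array.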

How the data were processed

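Rosette leaf RNA was measured on 6 Affymetrix ATH1 arrays, and the 3 of Ler were compared with one another. The values are linear signal intensities that the authors computed with MAS5, per the submitters' processing notes, and deposited; its version is not given in the sources used here. In the deposited columns the mean signal after trimming 2% at either end lay close to 500.0, so each array had been scaled as a whole before deposit.

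From these intensities log2(signal + 50) and its differences between times were computed with no further scaling (Python 3.11.15, pandas 2.3.3). A highest Ler signal at a fixed limit near the median of all values admitted 12305 of 22746 probe sets and left out 10441 as too dim. The straight line over log2 minutes was fitted across all of them in limma 3.58.1 (R 4.3.3) with a variance trend and Benjamini-Hochberg adjustment, and the code was tested on simulated data.

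The platform annotation gave 1 gene for 13513 probe sets, several for 503 and none for 8794, and symbols were updated by locus through RefSeq's table for TAIR 10.1, where 13436 matched. Probe sets with several genes or none stayed in the counts and were not named as genes. Named genes were, in each step, the single-gene probe sets among the bright ones (highest signal of at least 589), the 14 highest and the 14 lowest, with the 6 highest and lowest that moved the same way by at least 0.5 in both steps, the 6 with the highest peak and the 6 with the deepest dip at 60 min, the 4 best of the line fit in either direction, and up to 4 of each list with at least 3 tested genes (all of shorter lists). Genes shared with flu and others outside this rule were chosen after their values were seen. The members and the 31 lists and 39 families were chosen with earlier results of these data known, and the flavonoid and iron lists after seeing the values analysed here. The alternatives were other offsets, scalings and signal limits. With 1 array per time no value has an error of its own. Promoter motifs were planned and not run, as no genome is used here.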

Additional observations from a re-analysis of the deposited data

Results flagged for a closer look

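From 60 min to 2 h, 7 single-gene probe sets moved by at least 2-fold in opposite directions in Ler and flu. They come from 20 single-gene probe sets that rose in Ler in that step and 45 that fell. Of all 12305 probe sets, 3.0% rose in flu in the same step and 1.58% fell. With 1 array per genotype and time, the difference between the genotypes was not tested for any of them.

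AT5G48490, a lipid transfer protein related to DIR1, had a log2 difference of 1.38 in Ler and -1.05 in flu, where its signals were 4463, 2347 and 1107.5. It was thus lower at 60 min than at 30 min in both genotypes before the values parted. AT3G29970 had 1.26 in Ler, with signals of 195, 52.3 and 196, and -1.38 in flu, with 269, 202 and 46.9.

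The other 5 fell in Ler and rose in flu. AT2G41730 had -1.15 in Ler, with signals of 289.7, 546 and 219, and 2.70 in flu, with 209.5, 1069.8 and 7223. AT1G56060 had -1.47 in Ler, with 308, 423 and 121, and 1.13 in flu, with 312, 1156 and 2593. AT1G76590 had -1.29 and 1.33, AT1G13340 -1.24 and 1.13, and AT1G57650 -1.07 and 1.03, in Ler and flu in turn. All 5 were higher at 60 min than at 30 min in both genotypes, though AT1G76590 was nearly level in Ler, with 245 and 248. In Ler all 5 ended below their level at 30 min. AT1G57650 had 91.1, 231 and 83.8 in Ler and passed the signal limit only through its 60 min array. Its Ler differences are therefore no support for a direction.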

How the results depend on the processing

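The counts of probe sets that rose or fell depended on the handling of dim signals. With an offset of 16, 112 rose and 96 fell from 30 to 60 min and 92 rose from 60 min to 2 h. With an offset of 100 these steps had 51 rises and 20 falls and, in the second, 70 falls, and the whole interval had 99 falls. With no signal limit there were 142 rises and 276 falls in the first step, 145 and 176 in the second, and 270 and 372 over the whole interval. With the limit raised to the 75th percentile they were 48 and 18, 26 and 53, and 97 and 79, over fewer probe sets. Quantile normalization left 33 falls in the first step. Of the Ler falls of the first step, 8 of 96 were also falls in flu with an offset of 16 and 2 of 20 with an offset of 100. They were 2 of 18 with the higher limit, and 2 with arrays brought to the same median, where 34 fell in Ler. As reported they were 5 of 50. Of the second-step rises 11 of 92 were shared with an offset of 16, against 4 of 50 as reported. Of its falls 6 of 70 were shared with an offset of 100 and 8 of 53 with the higher limit, against 14 of 107. Shares over all probe sets at these settings are not given here. The straight line, against 0 higher and 2 lower, gave 1 higher with an offset of 100, 9 higher and 5 lower after quantile normalization and 74 higher and 37 lower with arrays brought to the same median, but 0 lower with the higher limit and 0 lower without a variance trend. The cause was not tested. Arrays brought to the same median had medians over all probe sets of 0.07 and -0.04 in the 2 steps, against -0.03 and 0.01. All 308 named gene differences recomputed under the offsets and scalings kept their sign. Of 152 such list medians 9 changed sign, in 7 of 38 medians, all of them within 0.13 of 0 as reported. In the first step these were starch and sucrose metabolism (-0.04 to 0.07) and photosystems (-0.04 to 0.07) with arrays brought to the same median, Calvin cycle (-0.13 to 0.04) and tetrapyrrole synthesis (0.02 to -0.002) after quantile normalization, and the antenna under both (-0.04 to 0.00 and 0.07). In the second step they were plastid gene expression under both (0.04 to -0.03 and -0.01) and alternative respiration (0.0009 to -0.05) with arrays brought to the same median. Of the named gene differences called at 2-fold, 52 of 58 were called in all 5 settings. The other 6 were those of AT5G14120, AT3G19910 and AT1G34630 over the whole interval, AT5G11650 and AT3G15160 in the first step and AT1G33050 in the second. No paired analysis was possible because the light times compared have 1 array each and share fewer than 2 replicate numbers. With 1 array per time no replicate could be left out. The planned search for promoter motifs was not run.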

Other observations

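The 2 steps of Ler can also be set beside the step of flu that shares no light time interval with them, a comparison chosen after seeing the data. Of the 107 probe sets that fell in Ler from 60 min to 2 h, 21 rose in flu from 30 to 60 min (19.6%), where 1.83% of all 12305 did. In the same step of flu 1 of them fell (0.935% against 0.561%). Of the 50 that rose in Ler from 60 min to 2 h, 9 fell in flu from 30 to 60 min (18.0% against 0.561%). There 1 rose (2.0% against 1.83%). Under the other offsets, scalings and signal limits the 21 became 7 to 31 and the 9 became 5 to 11.

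Of the 79 that rose in Ler from 30 to 60 min, 15 rose in flu from 60 min to 2 h (19.0% against 3.0%). A further 2 fell there (2.53% against 1.58%). TBL26 is one of the 15, with 376, 1941 and 1944 in Ler and 251, 510 and 3270 in flu. Of the 50 that fell in Ler in that step, 4 fell in flu from 60 min to 2 h (8.0% against 1.58%). Another 2 rose there (4.0% against 3.0%). These are values of single arrays, without a test.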
